A study of Mus musculus with 18 samples.

Results

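The lysosome was followed in immortalized mouse embryonic fibroblast (MEF) cells through 45 genes: 12 proteases, 13 enzymes that take apart glycans or glycosaminoglycans, 5 lipid enzymes or their activators, 9 genes of the lysosomal membrane or of cholesterol export, 4 genes of the proton pump and 2 transcription factors. The genes were given by symbol, and Gpnmb and Cd68 were chosen by their higher signals in SSBP1-KD cells than in SCR cells, a comparison already known when the list was drawn up. Each of the 45 symbols was measured by 1 probe set that carries no other symbol, out of 19938 symbols in all, and no filter on low signals was used. MEF cells of ICR background had been in contact for 2 h with adenovirus carrying a short hairpin RNA and were then kept for 70 h in normal medium. SSBP1-KD cells received a hairpin against Ssbp1, HSF1-KD cells a hairpin against Hsf1 and SCR cells a scramble RNA, so that the control cells carried virus too. Each kind of cell was placed in a water bath at 42 °C for 1 h (HS) or left at 37 °C (Cont). With 3 arrays in each of the 6 groups, 18 Affymetrix mouse gene arrays were read, each started from 200 ng of total RNA. HSF1 is the main transcription factor of the heat-shock response, and SSBP1 is a single-stranded DNA-binding protein of mitochondria.

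Lysosomes are acidic, membrane-bound compartments in which proteins, glycans, lipids and nucleic acids are broken down and their building blocks returned to the cytoplasm. The vacuolar proton pump acidifies the lumen, soluble hydrolases work there at low pH, and heavily glycosylated membrane proteins line the inner face of the membrane. The transcription factors TFEB and TFE3 bind E-box sequences in the promoters of many lysosomal genes and raise their transcription together. Inherited loss of single hydrolases of this list causes lysosomal storage diseases.

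All values are log2 signals, so that a log2 difference of 1 is a doubling of the signal, and each gene is compared only with itself between groups. The words raised, lowered, rose and fell are kept for an adjusted p under 0.05 from limma, with Benjamini-Hochberg adjustment across the probe sets. Array medians lay between 7.878 and 7.939. SSBP1-KD Cont replicate 1 stood apart, with a mean absolute residual of 0.152 where no other array passed 0.11. Its lowest correlation with an array of its own group was 0.985. That value was also 0.985 for SSBP1-KD Cont replicate 3 and 0.987 for replicate 2, and at least 0.993 for arrays of the other groups. Ssbp1 itself averaged 8.65 in SSBP1-KD HS against 9.06 in SCR HS, and 9.20 in SSBP1-KD Cont against 9.42 in SCR Cont. The difference was -0.41 in HS (adjusted p = 0.00155) and -0.22 in Cont, where it did not pass the threshold (adjusted p = 0.0555). Hsf1 was not measured by a probe set that carries its symbol alone, so the level of Hsf1 in HSF1-KD cells was not analysed here. The labels do not say whether replicates were grown apart, so each p-value rests on the spread among samples that may differ only technically. Of 12 fibroblast markers, the brightest over the 18 arrays were Vim (13.74 to 13.94), Fn1 (13.73 to 14.17) and Sparc (13.69 to 14.04), while Pdgfra read 8.68 to 9.82, Thy1 (7.77 to 8.23) lay near the array medians and Lum (4.78 to 5.43) lay below them.

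The promoters of 39 members were found in RefSeq (assembly GRCm38.p6, 250 bases before to 50 bases after the annotated start), and those of Npc1, Ctsb, Ctsh, Galns, Asah1 and Atp6v1h were not. The E-box CACGTG, which reads the same on both strands and lies inside the other E-box words searched, stood in 14 of the 39 promoters (35.9%) and in 8.09% of the promoters of 27025 genes. TCACGTGA, a word chosen after the promoters had been read, stood in 6 of the 39 (15.4%) and in 1.12% of all. An E-box with GT before and AC after it stood in 0 of the 39 and in 0.37% of all, and the heat shock element made of GAA, TTC and GAA at spaces of 2 bases, searched on both strands, in 0 of the 39 and in 0.662% of all. A match describes the letters and is not a measured binding site, and no match says only that these letters are not in this window. Lamp1, a gene whose signal fell with heat shock in HSF1-KD and SCR cells, had 4 E-boxes, all within the 80 bases before its start (chr8:13159081-13159160, plus strand), shown with the E-boxes in capitals.
Lamp1: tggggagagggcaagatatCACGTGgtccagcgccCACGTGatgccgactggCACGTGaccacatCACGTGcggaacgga
Ctsd and Mcoln1 each have another E-box that is not shown, and the window shown for each is the one with TCACGTGA. Of the other 13 members with an E-box, 30 bases around 1 E-box are shown for 7 described in the results that follow, again with the E-box in capitals, and those of Ctsa, Ctsf, Ctsl, Gaa, Gla and Glb1 are not shown: Atp6v0d1 (chr8:105566050-105566079, minus strand), Atp6v1a (chr16:44139373-44139402, minus strand), Ctsd (chr7:142387908-142387937, minus strand), Naglu (chr11:101070009-101070038, plus strand), Sgsh (chr11:119355522-119355551, minus strand), Lgmn (chr12:102439124-102439153, minus strand) and Mcoln1 (chr8:3500462-3500491, plus strand).
Atp6v0d1: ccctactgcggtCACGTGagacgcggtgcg
Atp6v1a: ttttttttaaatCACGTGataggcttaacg
Ctsd: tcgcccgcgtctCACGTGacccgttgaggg
Naglu: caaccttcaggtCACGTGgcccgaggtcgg
Sgsh: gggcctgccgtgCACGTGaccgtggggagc
Lgmn: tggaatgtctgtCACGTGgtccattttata
Mcoln1: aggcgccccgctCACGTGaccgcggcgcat
The 2 members with the widest range of group means, Gpnmb (chosen for its higher level in SSBP1-KD) and Ctsk, had no E-box. The 120 bases before their starts are shown for comparison: Gpnmb (chr6:49036398-49036517, plus strand) and Ctsk (chr3:95499090-95499209, plus strand).
Gpnmb: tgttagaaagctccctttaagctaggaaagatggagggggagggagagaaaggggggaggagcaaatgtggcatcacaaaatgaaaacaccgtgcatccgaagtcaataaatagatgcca
Ctsk: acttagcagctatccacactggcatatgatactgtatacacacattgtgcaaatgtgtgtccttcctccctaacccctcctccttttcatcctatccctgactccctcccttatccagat

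The 6 group means of a member spanned less than 0.5 log2 units in 29 of the 45 genes and less than 0.25 in 7, among them Atp6ap1 (0.10), Ctss (0.11), Psap (0.14) and Lamp2 (0.17). The widest ranges were those of Gpnmb (1.66), Ctsk (1.16), Manba (0.82), Cd68 (0.81), Atp6v1h and Lipa (0.76 each) and Scarb2 (0.74). Gpnmb and Cd68 were chosen for their gap between SSBP1-KD and SCR, so their place in this order follows in part from that choice. The highest mean of a gene fell in HSF1-KD Cont for 18 members and in SCR Cont for 14, and the lowest in SSBP1-KD HS for 16. The counts of ranges and of groups were made for the members alone, without the shares of all symbols, so they mark no trait of the members.

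**Figure D1:**
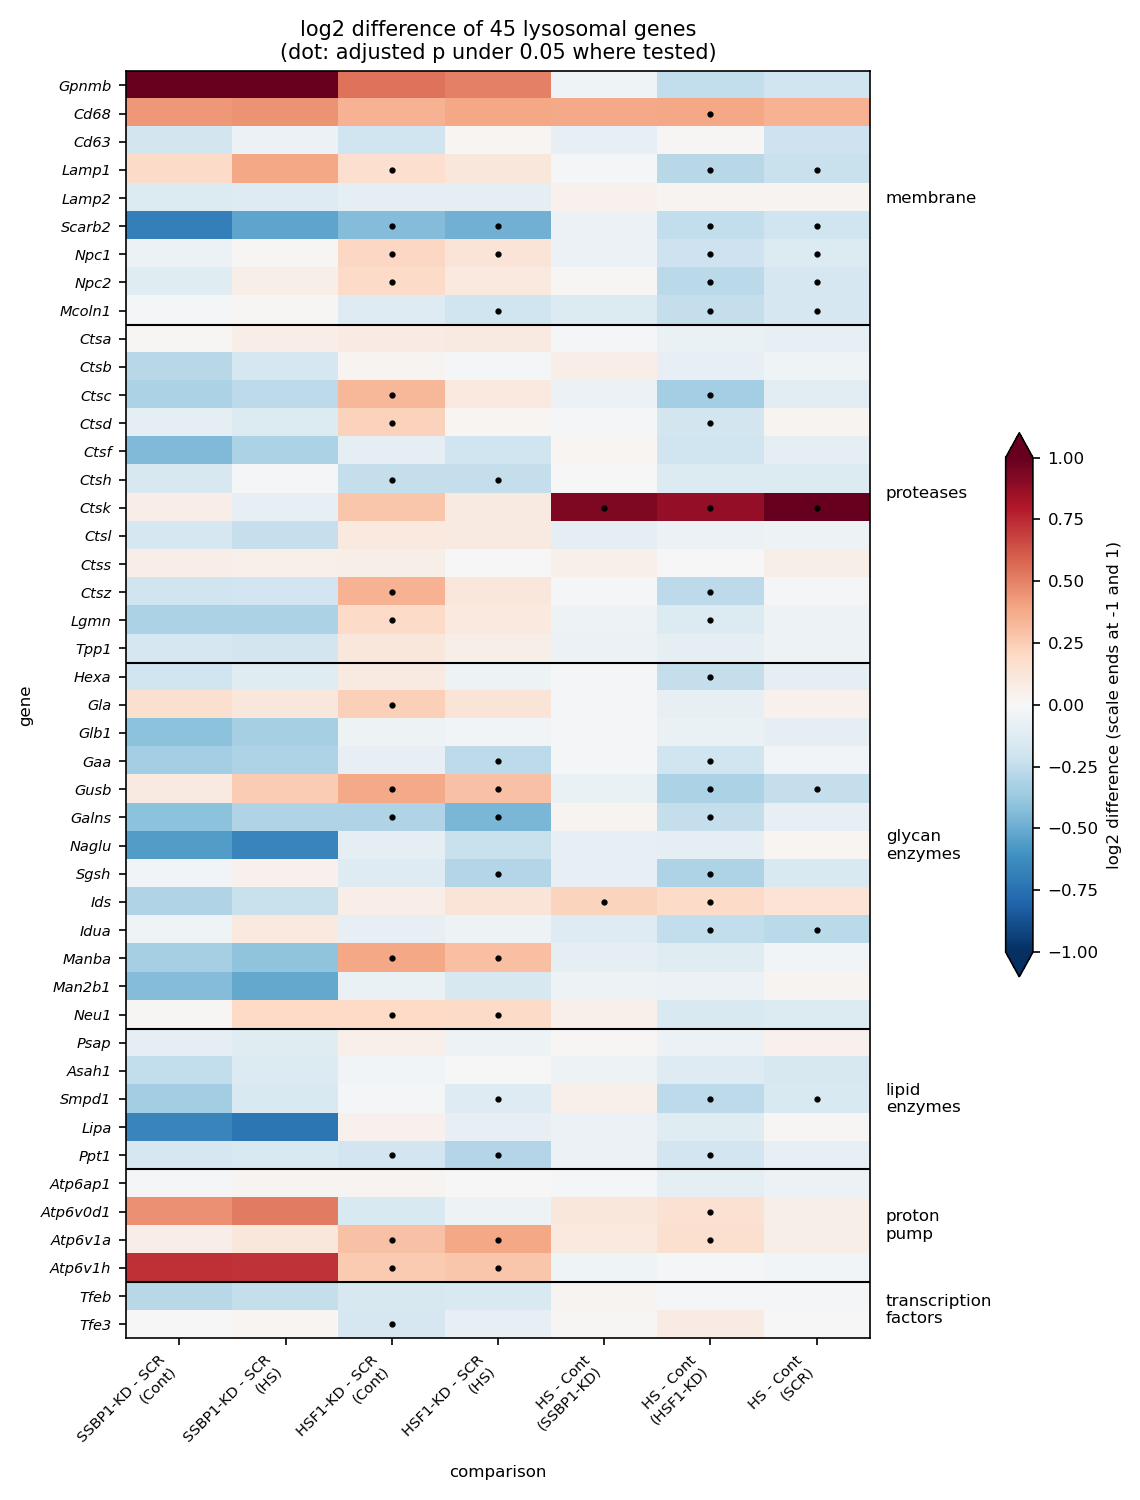
Log2 differences of the 45 genes (rows, by role) in 7 comparisons (columns), with a dot where a tested difference passed an adjusted p of 0.05. Gpnmb stands out in both SSBP1-KD columns and Ctsk in the 3 heat shock columns, and the SSBP1-KD against SCR columns carry no dots since they are given as a description.

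Gpnmb encodes a transmembrane glycoprotein of lysosomes and melanosomes. It was listed for its level in SSBP1-KD cells, so that comparison describes how it was chosen and was not tested. The signals of Gpnmb were 9.12, 8.91 and 8.99 in SSBP1-KD HS against 7.43, 7.50 and 7.23 in SCR HS, and 9.01, 9.14 and 9.00 in SSBP1-KD Cont against 7.78, 7.70 and 7.29 in SCR Cont. No SSBP1-KD array overlapped an SCR array, and the log2 differences were 1.62 in HS (3.07-fold) and 1.46 in Cont (2.75-fold, or 1.48 on the log2 scale without SSBP1-KD Cont replicate 1). HSF1-KD cells lay between those levels, with 7.90, 7.99 and 7.76 in HS and 8.02, 8.26 and 8.11 in Cont, which is 0.50 and 0.54 above SCR. Heat shock shifted Gpnmb by -0.04 in SSBP1-KD, by -0.25 in HSF1-KD (standard error 0.12, adjusted p = 0.156) and by -0.20 in SCR.

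Cd68 encodes macrosialin, a glycoprotein of the late endosomal and lysosomal membrane, and was chosen in the same way. Its signals were 10.15, 10.17 and 10.15 in SSBP1-KD HS against 9.88, 9.46 and 9.77 in SCR HS, and 9.77, 9.82 and 9.73 in SSBP1-KD Cont against 9.41, 9.42 and 9.22 in SCR Cont. The differences were 0.45 in HS (1.37-fold) and 0.43 in Cont (1.34-fold). HSF1-KD arrays read 10.09, 10.12 and 10.06 in HS and 9.58, 9.79 and 9.72 in Cont, 0.39 and 0.35 above SCR. Every HS array of Cd68 lay above every Cont array of the same kind of cell, by 0.38 on average in SSBP1-KD, 0.39 in HSF1-KD and 0.35 in SCR. In HSF1-KD, the kind of cell whose arrays had no part in choosing this gene, the rise with heat shock was 1.31-fold (standard error 0.09, adjusted p = 0.00562, and at most 0.041 over the alternatives run).

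Since macrophages, osteoclasts and melanocytes express some of these genes strongly, their markers were read beside them. The mean signal over 16 macrophage markers was 6.81 to 6.92 in SSBP1-KD HS against 6.75 to 6.82 in SCR HS, and 6.87 to 7.06 in SSBP1-KD Cont against 6.79 to 6.82 in SCR Cont, with HSF1-KD at 6.84 to 6.95 in HS and 6.88 to 6.94 in Cont. Over all 18 arrays Ptprc, which encodes the leukocyte antigen CD45, lay between 6.07 and 6.66, Adgre1 between 6.11 and 6.75 and Csf1r, the receptor for macrophage colony-stimulating factor, between 6.80 and 7.16. Of the 16, 2 were raised in HSF1-KD against SCR in HS (13.1% of all symbols) and 3 in Cont (10.9%), among them Lyz2, which encodes macrophage lysozyme, by 0.51 in HS and 0.44 in Cont (adjusted p = 0.00385 and 0.0118). In SSBP1-KD against SCR, as a description, 1 of the 16 lay above SCR past the threshold in HS (14.3% of all symbols), Itgam (0.24), and 4 did in Cont (14.6%), C1qa (0.34), Spi1 (0.31), Itgam (0.26) and Csf1r (0.21). Without SSBP1-KD Cont replicate 1 those 4 differences were 0.25, 0.27, 0.23 and 0.19. The 6 melanocyte markers averaged 7.07 to 7.09 in SSBP1-KD HS against 6.96 to 7.02 in SCR HS, with 7.08 to 7.32 for SSBP1-KD Cont against 6.95 to 6.98 for SCR Cont. Among them Mitf, a transcription factor of melanocytes and a relative of TFEB and TFE3, lay past the threshold above SCR in SSBP1-KD, by 0.38 in HS and 0.49 in Cont (0.53 without SSBP1-KD Cont replicate 1), and was raised by 0.20 in HSF1-KD HS against SCR HS (adjusted p = 0.0224). The other 5, the pigment-cell genes Pmel, Tyr, Tyrp1, Dct and Mlana, did not pass it in either knockdown. Mitf was read from the brightest of its probe sets. Its limma call for heat shock in HSF1-KD (0.35, adjusted p = 0.000573) was lost with their mean (adjusted p = 0.19). The differences of Mitf from SCR are not given by that mean. The mean over 6 osteoclast markers was 7.66 to 7.70 in SSBP1-KD HS and 7.69 to 7.76 in HSF1-KD HS against 7.66 to 7.68 in SCR HS, and in Cont it was 7.67 to 7.83 for SSBP1-KD and 7.74 to 7.79 for HSF1-KD against 7.66 to 7.76 for SCR cells. Itgb3, an integrin subunit, differed from SCR by -0.43 in HS and -0.47 in Cont in SSBP1-KD, and was raised by 0.31 and 0.46 in HSF1-KD (adjusted p = 0.00276 and 0.000171). Nfatc1, a transcription factor of osteoclasts, lay 0.27 and 0.17 above SCR in SSBP1-KD and was lowered by 0.14 in HSF1-KD Cont (adjusted p = 0.0256). The mean over 12 fibroblast markers was 10.74 to 10.76 in SSBP1-KD HS and 10.82 to 10.86 in HSF1-KD HS against 11.05 to 11.11 in SCR HS. In Cont it was 10.70 to 10.83 for SSBP1-KD and 10.91 to 10.96 for HSF1-KD cells, against 11.10 to 11.17 for SCR cells. The fibroblast markers did not move together. Against SCR in HS they ran from -1.08 (Col1a2) to 0.61 (S100a4) in SSBP1-KD and from -0.91 (Col1a2) to 0.48 (S100a4) in HSF1-KD. In SSBP1-KD HS, S100a4 and Vim (0.14) lay above SCR past the threshold, Thy1 (0.05) and Lum (0.29) did not pass it, and the others lay below. The part of these markers in the lysosomal differences was not tested, and in bulk RNA fewer cells of a type and less RNA per cell cannot be told apart.

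**Figure D2:**
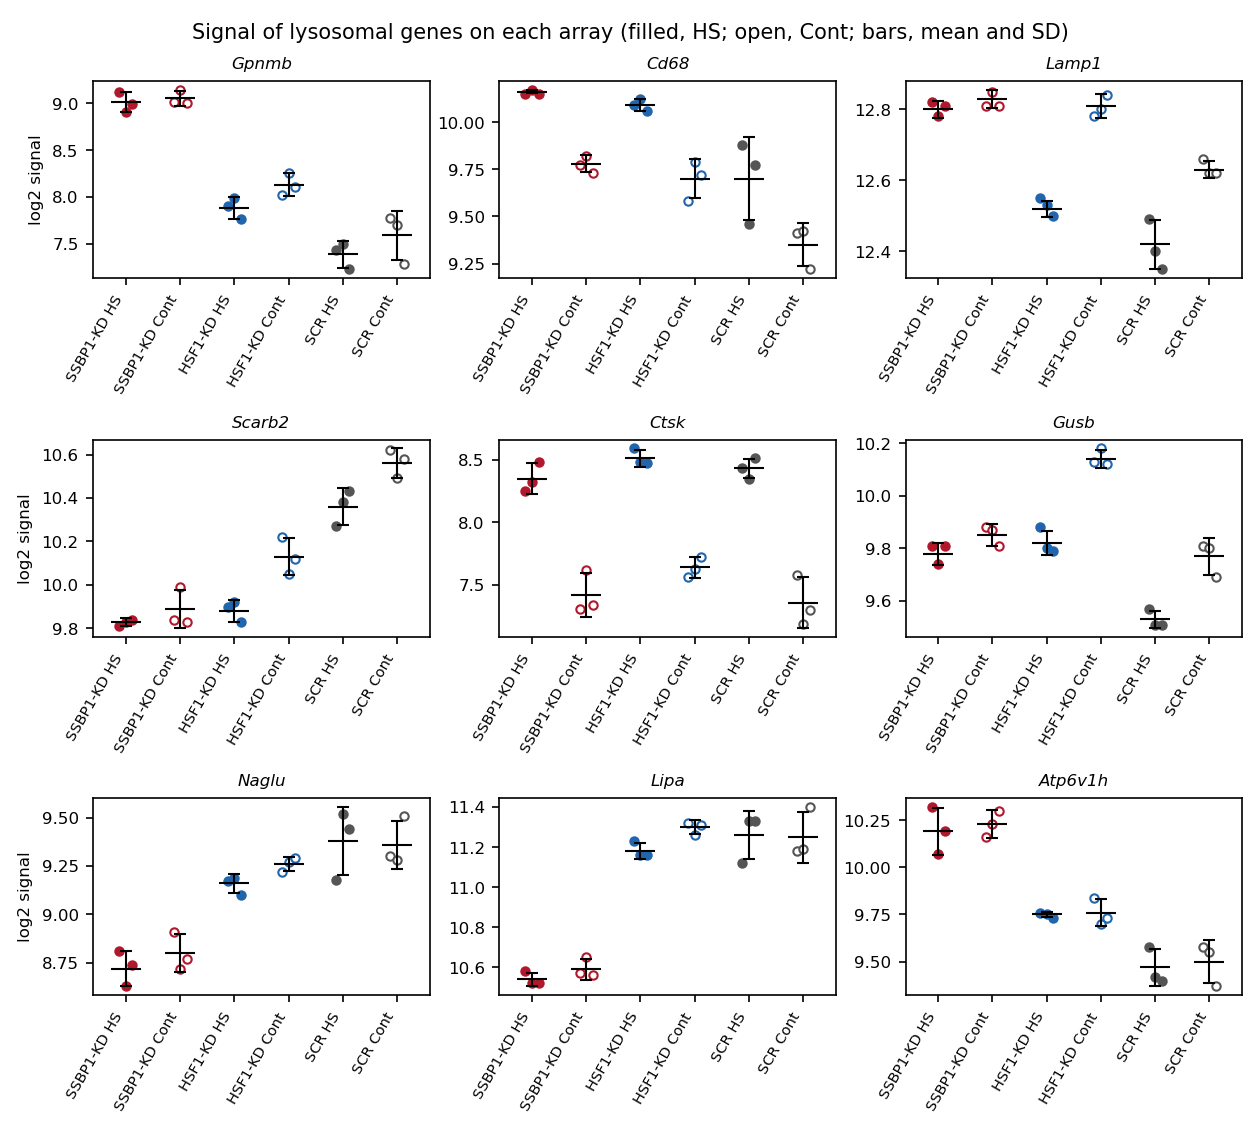
Log2 signal (y axis) of 9 genes on each array, by group (x axis), with filled points for HS, open points for Cont and bars for mean and SD of the 3 arrays. Within HS and within Cont, the means of Gpnmb and Atp6v1h are highest and those of Lipa, Naglu and Scarb2 lowest in SSBP1-KD cells, and Ctsk is higher in HS than in Cont of every kind of cell.

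With heat shock most of the called members were lowered in HSF1-KD and in SCR cells, and Ctsk rose in all 3 kinds of cells. Among the 43 members other than Gpnmb and Cd68, 2 were called in SSBP1-KD cells, both raised, where 6.90% of all symbols were called (4.08% raised and 2.82% lowered). In HSF1-KD cells 4 were raised and 17 lowered, where 21.4% of all symbols were called (10.6% raised and 10.8% lowered). In SCR cells 1 was raised and 8 were lowered, where 16.0% of all symbols were called (7.63% raised and 8.34% lowered). The 0 lowered by limma in SSBP1-KD cells is near the share of all symbols and is no result about the members. There 5 of the 43 had an unadjusted p under 0.05 by limma (20.2% of all symbols), 1 of them lowered. The methods' t-test gave 3 such genes (15.7% of all symbols), all raised. The median difference of the 43 genes was -0.02 in SSBP1-KD, -0.12 in HSF1-KD and -0.05 in SCR, and that of all symbols was -0.01 in each. All HS arrays lay below all Cont arrays for 4 members in SSBP1-KD (10.6% of all symbols), 29 in HSF1-KD (19.3%) and 16 in SCR (17.9%). The count in SSBP1-KD cells was 1 without Cont replicate 1 and also without HS replicate 1 or 3. In SCR cells 3 calls were left without SCR HS replicate 1 and 4 without SCR Cont replicate 3, and in HSF1-KD cells the count was 14 without HSF1-KD HS replicate 2.

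**Figure D3:**
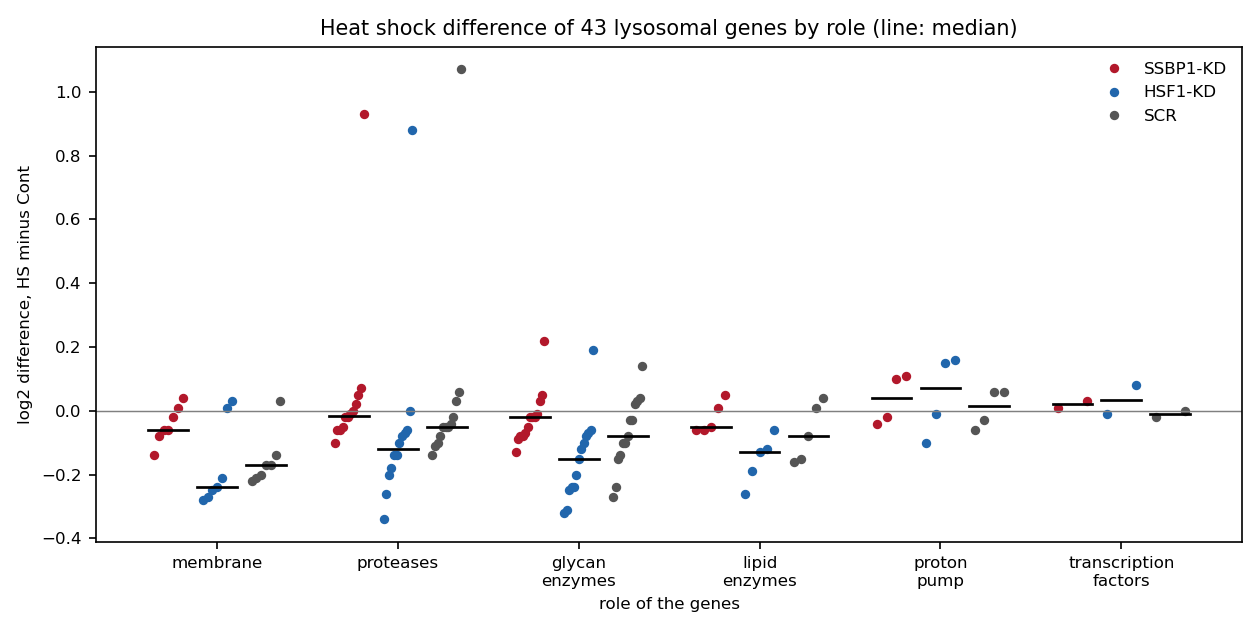
Log2 difference of HS minus Cont (y axis) for 43 genes by role (x axis) in SSBP1-KD, HSF1-KD and SCR cells, with a point for each gene and a line at the median. The membrane genes have medians of -0.06 in SSBP1-KD, -0.24 in HSF1-KD and -0.17 in SCR cells, and Ctsk is the single high point among the proteases.

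The heat responses themselves were compared by interaction terms. Of the 43 genes, limma called 0 in SSBP1-KD against SCR (0.492% of all symbols) and 0 in HSF1-KD against SCR (0.346% of all symbols), and the methods' t-test also called 0 after adjustment. At an unadjusted p under 0.05 limma gave 5 genes for SSBP1-KD (10.0% of all symbols) and 3 for HSF1-KD (7.86% of all symbols). The t-test gave 5 (10.8% of all symbols) and 7 (10.3% of all symbols). The limma counts lie near their shares of all symbols and are no result about the members. The 5 from limma were Lamp1 (0.20), Smpd1 (0.20), Neu1 (0.19), Npc2 (0.18) and Gusb (0.17), each with a higher heat response in SSBP1-KD than in SCR, at adjusted p of 0.188 to 0.39. In SSBP1-KD their own differences with heat shock were -0.02, 0.05, 0.05, 0.01 and -0.07. The 3 from limma for HSF1-KD were Ctsz (-0.24), Ctsd (-0.21) and Sgsh (-0.16), at adjusted p of 0.293 to 0.592. The numbers of calls in the 3 kinds of cells differ, but no single member had a called difference in heat response.

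Lamp1, the most abundant glycoprotein of the lysosomal membrane, read 12.55, 12.53 and 12.50 in HSF1-KD HS against 12.78, 12.80 and 12.84 in HSF1-KD Cont. In SCR cells it read 12.49, 12.40 and 12.35 in HS against 12.66, 12.62 and 12.62 in Cont. It fell by 0.28 in HSF1-KD (standard error 0.04, adjusted p = 0.000213) and by 0.22 in SCR (adjusted p = 0.00159), with no overlap of arrays, and both calls held whichever single array was left out. The SCR call was lost with the methods' t-test (adjusted p = 0.0588). In SSBP1-KD cells HS arrays (12.82, 12.78 and 12.81) and Cont arrays (12.81, 12.85 and 12.81) overlapped, with a difference of -0.02 (adjusted p = 0.805). Lamp1 is the member with 4 E-boxes before its start.

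Of the other membrane genes, Scarb2, the carrier that brings glucocerebrosidase to lysosomes, was lower in both knockdowns. It read 9.81, 9.83 and 9.84 in SSBP1-KD HS and 9.90, 9.92 and 9.83 in HSF1-KD HS, against 10.27, 10.38 and 10.43 in SCR HS. In Cont it read 9.84, 9.99 and 9.83 in SSBP1-KD and 10.22, 10.05 and 10.12 in HSF1-KD, against 10.62, 10.49 and 10.58 in SCR. All knockdown arrays lay below all SCR arrays of the same condition. HSF1-KD was lower than SCR by 0.48 in HS (0.72-fold, adjusted p = 5.04e-05) and by 0.43 in Cont (0.74-fold, adjusted p = 0.00017), and both calls held under every alternative run. With heat shock it fell by 0.25 in HSF1-KD (adjusted p = 0.00822) and by 0.20 in SCR (adjusted p = 0.0319), the SCR call being lost with the replicate number as a block and on leaving out any of 4 arrays in turn, which were HS replicates 1 and 2 and Cont replicates 1 and 3 of SCR. Both heat shock calls were lost with the methods' t-test (adjusted p = 0.0792 in HSF1-KD). The SSBP1-KD differences from SCR, given as a description, were -0.53 and -0.68, the second being -0.66 without SSBP1-KD Cont replicate 1.

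The cholesterol exporters Npc1 and Npc2 and the calcium channel Mcoln1 moved by less. With heat shock in HSF1-KD, Npc2, the soluble cholesterol carrier, fell by 0.27 (adjusted p = 0.00107), Mcoln1, the mucolipin channel, fell by 0.24 (adjusted p = 0.00287) and Npc1, the membrane cholesterol transporter, fell by 0.21 (adjusted p = 0.00242). In SCR their falls were 0.17, 0.17 and 0.14 (adjusted p = 0.0195, 0.0291 and 0.0382), and each of these 3 SCR calls was lost on leaving out some single arrays, among them SCR HS replicate 1 in every case. The methods' t-test kept none of the 3 SCR calls, nor that of Npc2 in HSF1-KD (adjusted p = 0.0598). In SSBP1-KD Mcoln1 had -0.14 (adjusted p = 0.096), Npc1 -0.06 and Npc2 0.01. Lamp2 and the tetraspanin Cd63 passed the threshold in none of the tested comparisons, with Lamp2 differing by -0.09 to 0.04.

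Ctsk, the collagen-degrading cathepsin best known from osteoclasts, had the largest rise with heat shock of the 43 genes in each kind of cell. Its signals were 8.25, 8.32 and 8.48 in SSBP1-KD HS against 7.31, 7.62 and 7.34 in SSBP1-KD Cont. They were 8.59, 8.48 and 8.47 in HSF1-KD HS against 7.56, 7.63 and 7.72 in HSF1-KD Cont, and 8.43, 8.35 and 8.51 in SCR HS against 7.58, 7.19 and 7.30 in SCR Cont. HS and Cont arrays did not overlap in any kind of cell. The rise was 1.90-fold in SSBP1-KD (log2 difference 0.93, standard error 0.10, adjusted p = 5.55e-05), 1.83-fold in HSF1-KD (0.88, adjusted p = 4.63e-05) and 2.10-fold in SCR (1.07, adjusted p = 5.49e-06). Without SSBP1-KD Cont replicate 1 the SSBP1-KD difference was 0.87, and the methods' t-test did not call it (adjusted p = 0.0904). The heat response differed from that of SCR by -0.15 in SSBP1-KD and by -0.20 in HSF1-KD (standard error 0.14 each, adjusted p = 0.819 and 0.779).

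In HSF1-KD cells 4 of the 12 proteases fell, where 10.8% of all symbols did: Ctsc, a dipeptidyl peptidase that activates serine proteases, by 0.34 (adjusted p = 0.00699), Ctsz, a carboxypeptidase, by 0.26 (adjusted p = 0.00443), Ctsd, the main lysosomal aspartic protease, by 0.18 (adjusted p = 0.00817) and Lgmn, an asparaginyl endopeptidase, by 0.14 (adjusted p = 0.0202). The call of Lgmn was lost without HSF1-KD Cont replicate 3, HS replicate 2 or HS replicate 3. The methods' t-test kept neither Lgmn nor Ctsc (adjusted p = 0.0649 for Ctsc). The same 4 genes were raised in HSF1-KD Cont against SCR Cont, by 0.33 for Ctsc (adjusted p = 0.0104, lost without HSF1-KD Cont replicate 2), 0.35 for Ctsz (adjusted p = 0.000536), 0.23 for Ctsd (adjusted p = 0.00155) and 0.19 for Lgmn (adjusted p = 0.00337). That comparison and the heat shock comparison share the HSF1-KD Cont arrays. Ctsz read 11.91, 11.96 and 11.91 in HSF1-KD Cont against 11.59, 11.56 and 11.59 in SCR Cont, and in HS 11.70, 11.65 and 11.65 in HSF1-KD against 11.49, 11.65 and 11.52 in SCR. In HS their HSF1-KD differences were 0.10, 0.11, 0.02 and 0.10, and none passed the threshold.

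Gusb, the beta-glucuronidase that trims glycosaminoglycans and the housekeeping gene of many expression assays, moved with heat shock and with HSF1 knockdown. It read 9.88, 9.80 and 9.79 in HSF1-KD HS against 10.13, 10.18 and 10.12 in HSF1-KD Cont, and 9.57, 9.51 and 9.51 in SCR HS against 9.81, 9.80 and 9.69 in SCR Cont. The arrays of the 4 groups did not overlap within either pair. Gusb fell with heat shock by 0.32 in HSF1-KD (adjusted p = 0.000202) and by 0.24 in SCR (adjusted p = 0.00219), against -0.07 in SSBP1-KD (adjusted p = 0.391). The SCR call was lost with the methods' t-test (adjusted p = 0.0569). Gusb was raised in HSF1-KD against SCR by 0.29 in HS (adjusted p = 0.000321) and by 0.38 in Cont (adjusted p = 5.4e-05).

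Among the other 12 glycan enzymes, Sgsh, the heparan sulfamidase, read 8.32, 8.36 and 8.38 in HSF1-KD HS against 8.60, 8.70 and 8.69 in HSF1-KD Cont, a fall of 0.31 (adjusted p = 0.000689), and 8.54, 8.73 and 8.66 in SCR HS, where HSF1-KD was 0.29 lower (adjusted p = 0.000942). The call against SCR was lost with the methods' t-test (adjusted p = 0.058). Idua, the alpha-iduronidase, fell by 0.25 in HSF1-KD (adjusted p = 0.0187) and by 0.27 in SCR (adjusted p = 0.014), with the HSF1-KD call lost without HSF1-KD Cont replicate 2 or HS replicate 3 and the SCR call lost without SCR Cont replicate 2 or SCR HS replicate 1. Gaa, Galns and Hexa fell in HSF1-KD by 0.20, 0.24 and 0.24 (adjusted p = 0.0242, 0.0316 and 0.0356), each with calls lost on leaving out single HSF1-KD arrays. Ids, the iduronate sulfatase, was the one glycan enzyme that rose, by 0.22 in SSBP1-KD (10.60, 10.60 and 10.65 in HS against 10.34, 10.48 and 10.38 in Cont, adjusted p = 0.0198) and by 0.19 in HSF1-KD (adjusted p = 0.0199). The SSBP1-KD call of Ids was lost without Cont replicate 1 (difference 0.19), Cont replicate 3, HS replicate 1 or HS replicate 3, and the HSF1-KD call without Cont replicate 2, HS replicate 1 or HS replicate 2. Idua overlaps Slc26a1 and Dgkq on the annotation, Sgsh overlaps Slc26a11 and Card14, and Galns overlaps Trappc2l. Other members overlap measured protein-coding genes too: Hexa (Tmem202), Glb1 (Tmppe), Ctsz (Nelfcd), Npc1 (Rmc1), Ctsa (Neurl2 and Pltp), Ctsb (Fdft1) and Asah1 (Frg1). The part of the overlapping genes in the signals was not tested.

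HSF1 knockdown raised 13 and lowered 5 of the 43 genes in Cont, where 21.0% of all symbols were called (10.9% raised and 10.1% lowered). In HS it raised 6 and lowered 8, where 23.7% of all symbols were called (13.1% raised and 10.7% lowered). The median difference of the members was -0.00 in HS and 0.04 in Cont, and that of all symbols 0.03 in both. The largest rise in Cont was that of Manba, the beta-mannosidase, which read 9.81, 9.75 and 9.75 in HSF1-KD Cont against 9.31, 9.34 and 9.49 in SCR Cont, up by 0.39 (adjusted p = 0.00413). In HS Manba was up by 0.30 (adjusted p = 0.0183), a call lost without SCR HS replicate 1 or HSF1-KD HS replicate 1 or 2. Galns, a sulfatase that acts on keratan sulfate, was lowered by 0.46 in HS (adjusted p = 0.000338) and by 0.30 in Cont (adjusted p = 0.00868). Both of these calls were lost with the methods' t-test (adjusted p = 0.0785 and 0.0769). In Cont 11 of the 18 calls held whichever single array was left out, and in HS 8 of the 14, with a count of 9 in HS without SCR HS replicate 2, SCR HS replicate 3 or HSF1-KD HS replicate 1.

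**Figure D4:**
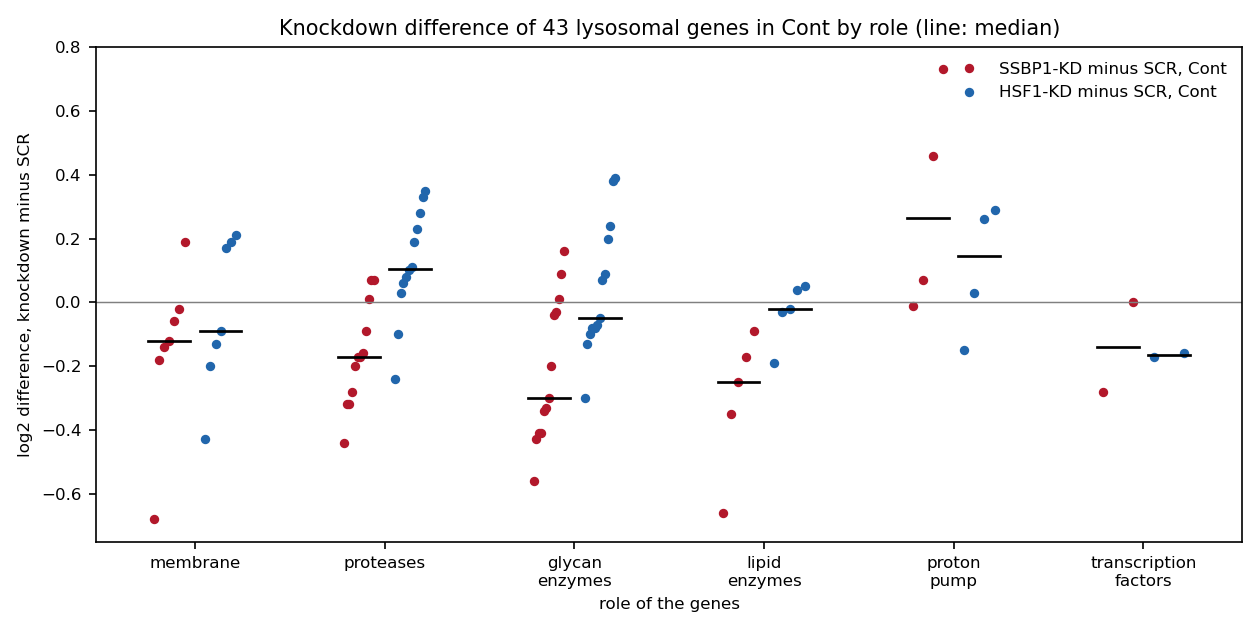
Log2 difference from SCR in Cont (y axis) of 43 genes by role (x axis), for SSBP1-KD and HSF1-KD cells, with a point for each gene and a line at the median. The glycan enzymes have medians of -0.30 in SSBP1-KD and -0.05 in HSF1-KD, the proteases -0.17 and 0.11 and the proton pump genes 0.27 and 0.15.

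SSBP1-KD against SCR is given as a description, since the list was drawn up with that comparison known. In HS 5 of the 43 members lay above and 19 below SCR past the threshold, where 28.7% of all symbols were called (14.3% raised and 14.4% lowered). In Cont 4 lay above and 20 below, where 31.1% of all symbols were called (14.6% raised and 16.5% lowered). The median difference was -0.13 in HS and -0.17 in Cont, and that of all symbols 0.03 and 0.05. Without SSBP1-KD Cont replicate 1 the count in Cont was 23.

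Lipa, the acid lipase that frees cholesterol from its esters, read 10.58, 10.52 and 10.52 in SSBP1-KD HS against 11.12, 11.33 and 11.33 in SCR HS, and 10.57, 10.65 and 10.56 in SSBP1-KD Cont against 11.18, 11.19 and 11.40 in SCR Cont. Its differences were -0.72 in HS (0.61-fold) and -0.66 in Cont (0.63-fold), with no overlap of arrays, while HSF1-KD differed from SCR by -0.08 and 0.04 (adjusted p = 0.516 and 0.735). Naglu, which removes N-acetylglucosamine from heparan sulfate, read 8.81, 8.63 and 8.74 in SSBP1-KD HS against 9.18, 9.52 and 9.44 in SCR HS, and 8.91, 8.72 and 8.77 in SSBP1-KD Cont against 9.30, 9.28 and 9.51 in SCR Cont. That is -0.66 in HS and -0.56 in Cont, or -0.62 in Cont without SSBP1-KD Cont replicate 1. Man2b1, an alpha-mannosidase, differed by -0.51 and -0.43, Manba by -0.40 and -0.33 and Glb1, the beta-galactosidase, by -0.33 and -0.41. Among the proteases Ctsf differed by -0.32 in HS and -0.44 in Cont, Lgmn by -0.32 in both and Ctsc by -0.26 and -0.32, the Cont value of Ctsc being -0.23 without SSBP1-KD Cont replicate 1.

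Among the lipid genes Smpd1, the acid sphingomyelinase, read 10.95, 10.95 and 10.89 in HSF1-KD HS against 11.17, 11.20 and 11.19 in HSF1-KD Cont, a fall of 0.26 (adjusted p = 0.000427). In SCR it fell by 0.15 (adjusted p = 0.0203), a call lost without SCR HS replicate 1, SCR Cont replicate 2 or SCR Cont replicate 3. Ppt1, which removes palmitate from proteins and whose locus overlaps Cap1, was lowered in HSF1-KD against SCR by 0.29 in HS (adjusted p = 0.00237) and by 0.19 in Cont (adjusted p = 0.0404), the second lost on leaving out 10 of the 18 arrays in turn. Psap, the precursor of the saposins that help lipid enzymes, and Asah1, the acid ceramidase, passed no test.

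Of the 4 proton pump genes, Atp6v1h and Atp6v0d1 had the largest differences of SSBP1-KD from SCR in both conditions, while Atp6v1a differed by 0.11 in HS and 0.07 in Cont and Atp6ap1 by 0.03 and -0.01. Atp6v1h, a regulatory subunit of the cytoplasmic V1 part, read 10.32, 10.07 and 10.19 in SSBP1-KD HS and 9.76, 9.75 and 9.73 in HSF1-KD HS, against 9.58, 9.42 and 9.40 in SCR HS. In Cont it read 10.16, 10.23 and 10.30 in SSBP1-KD and 9.84, 9.70 and 9.73 in HSF1-KD, against 9.58, 9.55 and 9.37 in SCR. SSBP1-KD lay 0.72 above SCR in HS (1.65-fold) and 0.73 in Cont (1.66-fold), and HSF1-KD was raised by 0.28 (adjusted p = 0.0138) and 0.26 (adjusted p = 0.0242). The HSF1-KD calls were lost on leaving out some single arrays, among them SCR HS replicate 2 or 3 in HS and SCR Cont replicate 3 in Cont.

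Atp6v0d1, a subunit of the membrane-bound V0 part, read 11.69, 11.57 and 11.59 in SSBP1-KD HS against 11.15, 11.13 and 11.02 in SCR HS, 0.52 higher, and lay 0.46 higher in SSBP1-KD Cont than in SCR Cont. Atp6v1a, the catalytic V1 subunit, had its highest levels in HSF1-KD cells, with 11.83, 11.88 and 11.83 in HSF1-KD HS against 11.43, 11.46 and 11.47 in SCR HS, up by 0.39 (adjusted p = 3.11e-05), and up by 0.29 in Cont (adjusted p = 0.000443). Both genes carry an E-box in the promoters shown above. Heat shock raised them slightly in HSF1-KD, by 0.15 for Atp6v0d1 (adjusted p = 0.0461) and 0.16 for Atp6v1a (adjusted p = 0.0245), calls lost on leaving out 13 and 4 of the arrays in turn. The accessory subunit Atp6ap1 passed no test.

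The 2 transcription factors had small differences. Tfeb read 8.76, 8.72 and 8.69 in SSBP1-KD HS and 8.85, 8.78 and 8.79 in HSF1-KD HS, against 8.99, 8.97 and 8.92 in SCR HS, so that all knockdown arrays lay below SCR. HSF1-KD differed by -0.15 in HS and -0.16 in Cont (adjusted p = 0.0617 and 0.0579), and SSBP1-KD by -0.24 and -0.28. Tfe3 was lowered by 0.17 in HSF1-KD Cont (adjusted p = 0.0369, lost on leaving out 5 of the arrays in turn) and differed by -0.08 in HS. With heat shock the differences of both genes were between -0.02 and 0.08. Members with an E-box (14) and without (23, Gpnmb and Cd68 left out) each had a median heat response of -0.02 in SSBP1-KD, -0.12 in HSF1-KD and -0.05 in SCR. In SSBP1-KD against SCR the medians were -0.06 with and -0.13 without an E-box in HS, and -0.06 and -0.17 in Cont, and no difference between these sets was tested.

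Other genes of the pathway were read from lists that do not overlap the members. Of 21 further lysosomal enzymes, heat shock lowered 1 in SSBP1-KD (2.82% of all symbols), 16 in HSF1-KD (10.8%) and 8 in SCR (8.34%). Hgsnat, an acetyltransferase of heparan sulfate breakdown, fell by 0.47 in HSF1-KD (adjusted p = 8.03e-05) and by 0.26 in SCR (adjusted p = 0.00723), and Acp2, a lysosomal acid phosphatase, by 0.22, 0.39 and 0.26 in SSBP1-KD, HSF1-KD and SCR (adjusted p = 0.0206, 0.00015 and 0.00379), the SSBP1-KD call being lost without SSBP1-KD Cont replicate 2 or any single SSBP1-KD HS array. Of 25 further membrane genes, heat shock lowered 2 in SSBP1-KD, 15 in HSF1-KD and 9 in SCR, to be read against the same shares, and the cation channel Tpcn1 fell by 0.38 in HSF1-KD (adjusted p = 0.000889) and 0.42 in SCR (adjusted p = 0.000397). Of 33 genes of autophagy and of mTORC1 signalling at the lysosome, heat shock raised 1 in SSBP1-KD (4.08% of all symbols), 9 in HSF1-KD (10.6%) and 8 in SCR (7.63%). Rragc, a Rag GTPase that brings mTORC1 to the lysosome, was the gene raised in SSBP1-KD (0.34, adjusted p = 0.0015), and it rose by 0.44 in HSF1-KD (adjusted p = 8.04e-05) and 0.40 in SCR (adjusted p = 0.000153). The methods' t-test lost the SCR calls of Hgsnat and Acp2, the HSF1-KD call of Tpcn1 and the SSBP1-KD calls of Acp2 and Rragc.

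Of 12 further subunits of the proton pump, 7 were raised and 1 lowered in HSF1-KD against SCR in HS (13.1% and 10.7% of all symbols), and 6 and 1 in Cont (10.9% and 10.1%). The gene lowered in both was Atp6v0a1, the largest V0 subunit, with means of 9.88 in HSF1-KD HS against 11.26 in SCR HS (a difference of -1.38, adjusted p = 1.32e-10) and of 10.40 in HSF1-KD Cont against 11.36 in SCR Cont (-0.96, adjusted p = 4.45e-08). In SSBP1-KD against SCR, again as a description, 8 of the 12 lay above and 1 below in HS (14.3% and 14.4% of all symbols), and 7 and 1 in Cont (14.6% and 16.5%), with Atp6v1b2 at 0.59 and 0.54, Atp6v1d at 0.50 and 0.47 and Atp6v1c1 at 0.49 in both. Among further membrane genes, Ctns, the cystine exporter, was lowered in HSF1-KD against SCR by 0.90 in HS (adjusted p = 5.14e-07) and by 0.76 in Cont (adjusted p = 4e-06).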

How the data were processed

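Arrays were hybridised with RNA of 6 groups of 3 samples. RMA and Partek 6.5 are named in the submitters' processing notes. The log2 signals of 35557 probe sets on 18 arrays were background-corrected and normalized by the authors, deposited as 1 table and used as they stand. Raw scans were not used here. Precision is limited by the number of arrays. A platform annotation gave 1 symbol to 21789 probe sets, several to 1621 and none to 12147, and each of 19938 symbols was read from its brightest probe set. A limma model (version 3.58.1, lmFit and eBayes, R 4.3.3) gave each probe set 1 mean per group (12 residual and 2.36 prior degrees of freedom), and a Benjamini-Hochberg adjusted p under 0.05 across the probe sets was a call. The model was tested on simulated data. The members and the gene lists were chosen with earlier results of these data known. For SSBP1-KD against SCR the threshold therefore served only to count and describe these genes, and no p-value is given for them. These counts, also those under the alternatives, are no test of the members. Gpnmb and Cd68 were tested only for heat shock in HSF1-KD. Every measured member could be named, and of each related list up to 4 genes per comparison, those with the largest called differences. The paper's statistics name Student's test, run as the methods' t-test. Alternatives changed the scaling, filter, probe set rule, samples, prior and weights, added the replicate number as a block, and left out each array. Promoter sequences came from RefSeq (GRCm38.p6).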

Additional observations from a re-analysis of the deposited data

Results flagged for a closer look

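The heat response of Atp6v0a1, the largest V0 subunit of the proton pump, differed between HSF1-KD and SCR cells by a test of the difference itself. Atp6v0a1 is not a member but was picked from the further subunits, and 0.346% of all symbols had such a called difference. It averaged 9.88 in HSF1-KD HS and 10.40 in HSF1-KD Cont, a fall of 0.52 (adjusted p = 5.87e-06), and 11.26 in SCR HS and 11.36 in SCR Cont, a difference of -0.10 (adjusted p = 0.215). The interaction was -0.43 (standard error 0.07, adjusted p = 0.00876 by limma), at most 0.0359 with any single array left out and 0.0759 with the methods' t-test. In SSBP1-KD cells heat shock gave -0.09 (adjusted p = 0.267), and the interaction with SCR there was 0.00 (adjusted p = 0.992, both by limma).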

How the results depend on the processing

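Of 64 member calls in the heat shock and HSF1-KD comparisons, 23 passed under each of 28 alternatives, 41 were lost under 1 or more (29 of them on leaving out 1 array) and 0 changed direction. In the order of heat shock in SSBP1-KD, HSF1-KD and SCR, the counts of 2, 21 and 9 members became 1, 11 and 3 when the compared arrays were fitted alone, which leaves fewer samples, and 0, 10 and 1 with the methods' t-test. With single arrays left out they lay between 1 and 2, between 14 and 22 and between 3 and 10. For HSF1-KD against SCR the count of 14 in HS became 9 with the compared arrays alone, 5 with the t-test and 22 with array weights, and lay between 9 and 15 with 1 array left out. The count of 18 in Cont became 11 with the compared arrays alone and lay between 13 and 20 with 1 array left out. For SSBP1-KD against SCR the count of 24 in HS became 12 with the t-test and 18 to 25 with 1 array left out, and the count of 24 in Cont became 14 and 19 to 25. Where no construction is named, the cause was not tested. The shares of all symbols called at the adjusted threshold under these alternatives are not given. A change in the counts of members therefore cannot be told apart from a change in all calls. Replicate numbers did not pair the arrays: of 45 pairs with the same number 6 correlated above 0.1 (range -0.276 to 0.171), and 6 of 18 arrays lay closest to their own number. With the replicate number as a block the counts were 2, 21 and 8 for heat shock, 13 and 19 for HSF1-KD against SCR, 23 and 23 for SSBP1-KD against SCR and 0 and 0 for the heat responses. Other normalization, filter, probe set and prior choices kept each count within 1.5 times its value.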
